A study of Mus musculus with 39 samples.

Results

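The 9 genes Cyp2c29, Cyp2c37, Cyp2c38, Cyp2c39, Cyp2c50, Cyp2c54, Cyp2c55, Cyp2c65 and Cyp2c70 are members of the mouse Cyp2c subfamily of cytochromes P450. They were chosen by name, and their values were taken from probe sets annotated with that gene and no other. The probe set of Cyp2c65 is of a kind that matches several transcripts, so its signal may not be of this gene alone. Each had exactly 1 such probe set, so that 9 probe sets stood for 9 of the 18193 genes on the array, and Cyp2c68 and Cyp2c23 are given beside them. All 9 were among the 12580 genes tested, for which the signal had to exceed the array's median on 4 or more of the 39 arrays.

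RNA was from whole liver of male B6C3F1/Crl mice, the cross of a C57BL/6 male with a C3H/He female, 29 to 32 days old on arrival and acclimatised for 5 days. The treated groups had phenobarbital at 0.05% (w/v) in the drinking water for 1, 7, 28 or 91 days, and an untreated control group stood beside each. No allele, transgene or second agent is named in the labels. There were 4 arrays of day 1 controls and 5 of every other group, 8 groups in all. At each time the comparison asked which genes differed in liver exposed to the drug.

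Cytochromes P450 of the Cyp2c subfamily are haem enzymes of the endoplasmic reticulum that oxidise drugs, steroids and fatty acids. Several of the mouse enzymes turn arachidonic acid into epoxides or hydroxy acids, and in liver they take their electrons from P450 reductase and cytochrome b5. Phenobarbital acts through the nuclear receptor CAR (gene Nr1i3), which moves into the hepatocyte nucleus, pairs with the retinoid X receptor and binds DNA at repeated nuclear receptor motifs. The genes form a cluster of close copies on chromosome 19, so that related coding sequences sit side by side under promoters of their own.

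In the RefSeq annotation of GRCm38.p6 the chromosome carries 19 Cyp2c genes and pseudogenes, 15 of them protein-coding. Along it the measured genes followed each other as Cyp2c55, Cyp2c65, Cyp2c29, Cyp2c39, Cyp2c38, Cyp2c37, Cyp2c54, Cyp2c50 and Cyp2c70, with other subfamily genes in between. Cyp2c39 had a pair of annotated starts, of which the first lay before the start of Cyp2c38 and the other after it. Of the 9 genes 8 had a promoter entry, and Cyp2c54 had none. The genes differed in how they responded, and the promoters are shown as a description. Their part in the responses was not tested. Each line gives the 200 bases before the annotated start of transcription, read 5′ to 3′ on the strand of the gene. Capitals mark matches to 4 motifs, which were searched on both strands over 250 bases.

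Cyp2c55, chr19:39006819-39007018, + strand: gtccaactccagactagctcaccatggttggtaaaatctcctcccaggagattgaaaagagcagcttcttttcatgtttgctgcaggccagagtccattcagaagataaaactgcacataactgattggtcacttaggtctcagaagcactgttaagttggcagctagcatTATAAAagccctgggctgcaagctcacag

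Cyp2c65, chr19:39060806-39061005, + strand: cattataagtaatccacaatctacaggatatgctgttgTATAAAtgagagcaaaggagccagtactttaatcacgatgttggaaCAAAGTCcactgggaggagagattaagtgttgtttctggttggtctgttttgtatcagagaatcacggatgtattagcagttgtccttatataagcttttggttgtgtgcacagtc

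Cyp2c29, chr19:39286885-39287084, + strand: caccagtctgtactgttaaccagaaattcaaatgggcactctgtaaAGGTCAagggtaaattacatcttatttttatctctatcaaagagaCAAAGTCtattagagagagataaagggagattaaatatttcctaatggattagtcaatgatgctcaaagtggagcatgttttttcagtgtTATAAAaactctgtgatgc

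Cyp2c39, first start, chr19:39347146-39347345, + strand: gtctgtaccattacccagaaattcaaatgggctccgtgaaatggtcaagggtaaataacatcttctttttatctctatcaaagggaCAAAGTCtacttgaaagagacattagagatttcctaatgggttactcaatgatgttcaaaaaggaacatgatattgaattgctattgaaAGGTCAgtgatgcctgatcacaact

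Cyp2c39, other start, chr19:39510622-39510821, + strand: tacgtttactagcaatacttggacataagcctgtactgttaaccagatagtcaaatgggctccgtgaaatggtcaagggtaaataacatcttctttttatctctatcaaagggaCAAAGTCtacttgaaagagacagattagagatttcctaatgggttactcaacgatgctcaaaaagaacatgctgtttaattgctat

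Cyp2c38, chr19:39463076-39463275, - strand: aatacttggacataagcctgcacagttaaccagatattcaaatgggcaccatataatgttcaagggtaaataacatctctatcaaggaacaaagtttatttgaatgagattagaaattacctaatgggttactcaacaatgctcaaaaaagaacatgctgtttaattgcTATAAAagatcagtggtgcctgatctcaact

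Cyp2c37, chr19:39992224-39992423, + strand: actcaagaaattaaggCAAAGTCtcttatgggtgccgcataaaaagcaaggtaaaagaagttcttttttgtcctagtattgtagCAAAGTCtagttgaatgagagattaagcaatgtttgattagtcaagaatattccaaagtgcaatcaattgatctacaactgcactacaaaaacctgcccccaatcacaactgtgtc

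Cyp2c50, chr19:40089479-40089678, + strand: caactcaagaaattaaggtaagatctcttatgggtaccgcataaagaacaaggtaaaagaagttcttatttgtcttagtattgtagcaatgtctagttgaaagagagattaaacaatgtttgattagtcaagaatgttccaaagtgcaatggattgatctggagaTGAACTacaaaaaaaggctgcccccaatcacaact

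Cyp2c70, chr19:40187287-40187486, - strand: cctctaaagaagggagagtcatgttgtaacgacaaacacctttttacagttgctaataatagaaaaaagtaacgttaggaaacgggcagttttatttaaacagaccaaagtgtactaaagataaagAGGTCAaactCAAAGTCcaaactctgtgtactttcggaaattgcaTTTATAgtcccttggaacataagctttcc

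The motifs were AGGTCA and AGTTCA, the hexamers that nuclear receptors bind, CAAAGTC, a core of the sites of the hepatocyte factor HNF4A, and TATAAA, the TATA box. Of 32851 promoter entries of the same length in the genome, 14.0% held AGGTCA, 11.8% AGTTCA, 3.84% CAAAGTC and 12.4% TATAAA. The motif CAAAGTC began at position -116 from the start of Cyp2c65, -109 from that of Cyp2c29, -114 and -86 from the first and the other start of Cyp2c39, -64 from that of Cyp2c70, and -184 and -116 from that of Cyp2c37. These letters were not in the windows of Cyp2c55, Cyp2c38 and Cyp2c50. A pair of hexamers in the same direction with 4 bases between them, the spacing that CAR is known to use, was in 8 of all entries (0.024%) and in 0 of the Cyp2c entries. With so small a share, 0 was likely beforehand in these few entries. Only exact letters within the 250 bases were searched, so the absence does not say whether these genes have CAR sites. Over the 250 bases the promoters of Cyp2c37 and Cyp2c50 were 84.3% identical, those of Cyp2c38 and the first start of Cyp2c39 75.8%, and those of Cyp2c29 and that start 74.1%. The promoters of the neighbours Cyp2c55 and Cyp2c65 were 54.9% identical. A match is a description of letters in a window and not a measured binding site.

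All values are deposited log2 signals, where 1 unit is a factor of 2, and levels of different probe sets were not set against each other. An effect is phenobarbital minus control with its standard error (SE), and adjusted p-values come from limma, by the Benjamini-Hochberg method over the 12580 genes. Genes with an adjusted p under 0.05 were called. No label says that the arrays are of separate animals, so a p-value here reflects only how these samples vary. In whole liver, fewer cells that express a gene and less RNA per cell cannot be told apart. Probe sequences were not used here, and how much the probe sets of these close copies read each other was not checked.

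As for the labelled tissue, 7 of 8 hepatocyte markers had a probe set, all 7 lay above the array median, and their mean was 14.3 to 14.4 in every group. Markers of intestinal epithelium and kidney tubule, tissues that also express some of these genes, had group means of 5.90 to 6.17 and of 4.72 to 5.05, beside array medians of 5.69 to 5.80. Markers of stellate cells were lower in all treated than in all control arrays at day 28 (8.63 to 9.07 against 9.19 to 9.32) and at day 91 (8.76 to 8.96 against 9.02 to 9.22), and their part in the results was not tested. Phenobarbital day 1 replicate 3 stood apart in pancreas genes (11.2, in the other arrays of its group at most 6.71). Phenobarbital day 7 replicate 3 stood apart in neutrophil genes (9.70, the others at most 5.32), and the identifier of control day 28 replicate 2 is out of sequence with the rest. Without these 3 arrays the numbers of Cyp2c genes called higher and lower were the same at every time. The mean of the spike-in control probe sets was 0.89 higher in treated than in control arrays at day 7, with an exact permutation p of 0.00794 (adjusted over 12 tests, p = 0.0191). It was 0.25 lower in treated arrays at day 1 and 0.34 lower at day 28 (exact permutation tests, adjusted p = 0.0273 and 0.0475). The difference between 3′ and 5′ probe sets of control genes was 0.20 lower in treated arrays at day 28 (adjusted p = 0.0191). The array mean was 0.018 to 0.025 lower in treated arrays at the 4 times (exact permutation tests, adjusted p = 0.0273 at day 1 and 0.0191 later). The part of these measures in the results was not tested beyond fits with the spike-in mean or the 3′ to 5′ difference as a covariate.

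With phenobarbital 6 of the 9 genes were higher from the first day, Cyp2c70 was nearly flat, Cyp2c39 was lower from day 28 and Cyp2c38 at day 91. At day 1, 6 of the 9 genes were called higher and 0 lower, where 15.8% of all genes tested were called higher and 16.7% lower. None of the 9 was lower at an unadjusted limma p under 0.05 either (0 genes). At day 7 the numbers were again 6 and 0 by limma, and 0 lower without adjustment, beside 5.64% and 11.4% of all genes. At day 28, 6 were higher and 1 lower (11.2% and 18.1% of all genes), and at day 91, 7 were higher and 2 lower (4.62% and 16.1%). The same 6 genes, Cyp2c55, Cyp2c65, Cyp2c37, Cyp2c54, Cyp2c50 and Cyp2c29, were higher at all 4 times, which held for 1.07% of all genes. Of these, Cyp2c65 passed the filter on low values only through its treated arrays of days 7, 28 and 91. Its place in these counts is therefore a description and not support for a rise, and at day 1 none of its arrays exceeded the array median.

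In these 6 genes every treated array lay above every control array of its day at all 4 times, which was so for 12.8%, 3.61%, 5.80% and 2.54% of all genes at days 1, 7, 28 and 91. The same limit holds here for Cyp2c65. A single gene at day 28 and 2 genes at day 91 lay wholly below, as did 9.59% and 8.75% of all genes. The median effect over the 9 genes was 0.42, 0.78, 0.71 and 0.62, beside 0.0063, -0.048, -0.020 and -0.066 over all genes. The plot of signals by array shows the levels behind these counts.

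**Figure D1:**
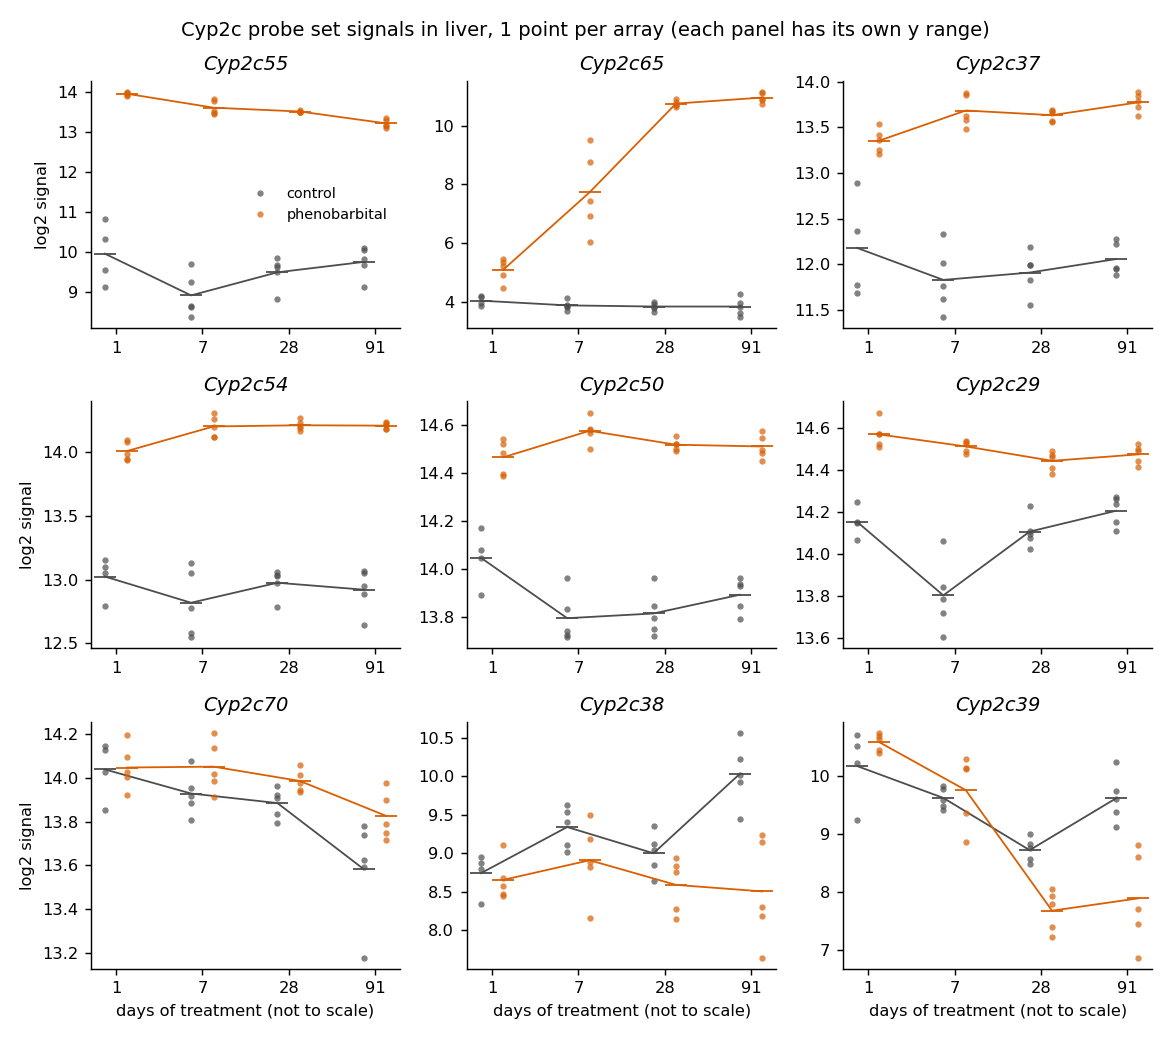
Log2 signal (y axis, its own range in each panel) of the 9 Cyp2c probe sets against days of treatment (x axis, not to scale), with 1 point per array, control in grey and phenobarbital in orange; horizontal bars and lines give group means (4 arrays in day 1 controls, 5 in each other group). The treated arrays of Cyp2c55, Cyp2c65, Cyp2c37, Cyp2c54, Cyp2c50 and Cyp2c29 sit above all controls at each time, Cyp2c65 climbs from a mean of 5.09 to 10.97, and Cyp2c39 and Cyp2c38 end below the controls.

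Cyp2c55 and Cyp2c65, neighbours in the cluster that are known best from the gut, had the largest fitted effects from day 7 on. On the measured signals Cyp2c55 was near its full effect after 1 day. Cyp2c65 rose only slightly on the first day and then climbed for 4 weeks. Cyp2c55 makes hydroxy acids from arachidonic acid and is a textbook target of CAR and PXR.

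The control arrays of Cyp2c55 at day 1 read 10.83, 10.33, 9.55 and 9.14, and the treated arrays 13.90, 13.91, 13.97, 13.96 and 13.99. The treated arrays lay within 0.1 of each other while the controls spread over more than 1 unit. On average these treated signals were 1.12 below the highest of their array. Whether nearness to the top of the scale narrowed their spread or the rise was not tested. The effect was 3.99 (SE 0.23, adjusted p = 4.99e-15), or 15.8-fold with a 95% interval of 11.4 to 22.0, and only 1 gene in all had a larger rise that day. At day 7 the controls read 9.25, 9.70, 8.62, 8.39 and 8.65 and the treated arrays 13.44, 13.53, 13.46, 13.76 and 13.82. Both groups were lower than at day 1, the controls more so, and the effect was 4.68 (SE 0.22, adjusted p = 4.36e-18), or 25.6-fold. At days 28 and 91 the effect was 4.01 and 3.45, or 16.1-fold and 10.96-fold, with adjusted p of 3.78e-16 and 3.02e-14.

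The effect on Cyp2c55 depended on time over the 4 days together (F test, adjusted p = 0.0187), while none of its steps from one time to the next passed the test. These steps were 0.69 (SE 0.32, adjusted p = 0.120) from day 1 to 7, -0.67 (adjusted p = 0.147) to day 28 and -0.56 (adjusted p = 0.195) to day 91. The level in treated liver fell by 0.74 from day 1 to day 91 (SE 0.22, adjusted p = 0.00562), from a mean of 13.95 to 13.21, where 28.0% of all genes fell in treated arrays. In controls Cyp2c55 fell by 1.04 from day 1 to 7 (adjusted p = 0.00114) and rose by 0.58 to day 28 (adjusted p = 0.0316).

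Cyp2c65 was dim in the controls, where all 19 arrays lay below the lower quartile of their array, which was 4.37 to 4.48. It passed the filter on low values only through the treated arrays of days 7, 28 and 91. Its control signal is therefore not set apart from background, and folds are given as lower bounds, from the treated mean over the mean lower quartile of the control arrays of that day. The fitted effects below use the measured control signals. At day 1 the controls read 4.15, 3.87, 3.94 and 4.18 and the treated arrays 4.92, 4.47, 5.36, 5.23 and 5.47. The groups did not overlap, and the effect was 1.06 (SE 0.35, adjusted p = 0.0176). At day 7 the controls read 4.14, 3.89, 3.83, 3.67 and 3.84 and the treated arrays 9.53, 8.75, 6.04, 6.92 and 7.43. The treated arrays spread over more than 3 units, with an SD of 1.40 against 0.17 in the controls. The effect was 3.86 (SE 0.33, adjusted p = 4.51e-11), with a rise of at least 9.8-fold. This SE comes from 1 spread shared by all 8 groups. It understates the error at day 7, where the treated arrays varied most.

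At day 28 the treated arrays of Cyp2c65 read 10.72, 10.81, 10.65, 10.72 and 10.91, beside 3.91, 4.002, 3.63, 3.80 and 3.83 in controls. The wide spread of day 7 was gone, with an SD of 0.10. The fitted effect was 6.93 (SE 0.33, adjusted p = 3.79e-18), and the rise was at least 81.4-fold. At day 91 the treated arrays read 11.14, 10.74, 11.15, 10.90 and 10.92 and the controls 3.83, 3.62, 3.49, 4.28 and 3.95. The fitted effect was 7.13 (SE 0.33, adjusted p = 1.43e-18), and the rise was at least 93.7-fold. The effect grew by 2.80 from day 1 to 7 (adjusted p = 0.000136) and by 3.06 from day 7 to 28 (adjusted p = 0.000317). In that direction 8.16% and 5.98% of all genes were called. The shared spread understates the error of these steps, which both involve day 7. Because Cyp2c65 passed the filter only through treated arrays, these p-values and shares are a description and not support for growth. From day 28 to 91 the change was 0.21 with a 95% interval of -0.73 to 1.14 (adjusted p = 0.770).

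At day 7 the treated arrays also differed in the mean of 12 genes that are known to be higher in male than in female liver. Over replicates 1 to 5 in turn this mean was 12.16, 11.92, 10.44, 10.41 and 10.98, beside 9.53, 8.75, 6.04, 6.92 and 7.43 for Cyp2c65 and 8.86, 9.37, 10.14, 10.12 and 10.30 for Cyp2c39. Replicates 1 and 2 were the 2 highest in the male-biased mean and in Cyp2c65 and the 2 lowest in Cyp2c39. The controls of day 7 had a male-biased mean of 11.4 to 12.3. This mean was used as a covariate in an alternative added after the data were seen. The effect on Cyp2c65 was then 1.65 at day 1 and 4.37 at day 7 (limma, adjusted p = 4.83e-05 and 4.89e-15). The numbers of Cyp2c genes called were the same at each time. The covariate itself differed with treatment, with means of 10.26 in treated against 11.02 in control arrays at day 1. At day 7 they were 11.18 against 11.83. The values with the covariate therefore rest on the model and are not firmer than those of the main fit. The part of sex-biased expression in these values was not tested further.

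Cyp2c37, Cyp2c54 and Cyp2c50, neighbours near the far end of the cluster, were higher at day 1, and the effect on each was larger at day 7. They and Cyp2c29 are enzymes that form epoxides or hydroxy acids from arachidonic or linoleic acid. The rises of these 4 genes ranged from 1.21-fold to 3.62-fold.

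For Cyp2c37 the controls of day 1 read 11.78, 12.89, 12.36 and 11.68 and the treated arrays 13.21, 13.25, 13.42, 13.36 and 13.54. The controls were spread, and the highest, replicate 2, was also the lowest of them in the male-biased mean (9.67). The effect was 1.18 (SE 0.16, adjusted p = 1.72e-06), or 2.26-fold. At day 7 the controls lay at 11.62, 12.33, 11.43, 11.76 and 12.01 and the treated arrays at 13.49, 13.63, 13.58, 13.85 and 13.87. The effect was then 1.86 (adjusted p = 2.87e-11), or 3.62-fold, which was 0.68 more than at day 1 (adjusted p = 0.0273). In that step the treated level changed by 0.33 (adjusted p = 0.111) and the control level by -0.35 (adjusted p = 0.0891). It was 1.72 at day 28 and 1.72 at day 91, or 3.30-fold and 3.29-fold. The dependence on time over the 4 days did not pass the test (F test, adjusted p = 0.0621).

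Cyp2c54 read 13.16, 13.05, 13.09 and 12.80 in the controls of day 1 and 13.98, 13.94, 14.08, 13.95 and 14.10 in the treated arrays. The groups were separated by more than 0.7. The effect was 0.98 (SE 0.088, adjusted p = 2.67e-10), or 1.98-fold. It grew by 0.40 to 1.38 at day 7 (adjusted p of the step 0.0169) and was 1.24 and 1.29 at days 28 and 91. From day 1 to 7 the treated level changed by 0.19 (adjusted p = 0.0828) and the control level by -0.21 (adjusted p = 0.0647). The treated mean stayed between 14.20 and 14.21 over the last 3 times, with SDs of 0.026 to 0.086.

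Cyp2c50 had effects of 0.42, 0.78, 0.71 and 0.62 at days 1, 7, 28 and 91, or 1.34-fold, 1.72-fold, 1.63-fold and 1.54-fold. The SE was 0.051 at day 1 and 0.048 later, and the adjusted p was 1.98e-07, 9.41e-15, 1.62e-13 and 7.10e-12. Treated arrays ranged from 14.39 to 14.65 over all times and controls from 13.72 to 14.17. The step of 0.36 from day 1 to 7 was called (adjusted p = 0.000497), and in the same interval the controls fell by 0.25 (adjusted p = 0.000432). The treated level changed by 0.11 in that step (adjusted p = 0.0856), from 14.47 to 14.58.

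Cyp2c29, which is long known as a phenobarbital-inducible liver enzyme, had the smallest measured rise of the 6. Its effect was not told apart from that of Cyp2c50 at days 1 and 7 (exact permutation tests, adjusted p = 0.948 and 0.437). It was smaller by 0.37 at day 28 and by 0.35 at day 91 (adjusted p = 0.0100 at both). The controls of day 1 read 14.15, 14.25, 14.15 and 14.07 and the treated arrays 14.52, 14.57, 14.67, 14.51 and 14.57. The effect was 0.42 (SE 0.054, adjusted p = 6.39e-07), then 0.71 at day 7, 0.34 at day 28 and 0.27 at day 91 (adjusted p = 0.000346). In folds these were 1.34, 1.64, 1.26 and 1.21. The peak at day 7 coincided with low controls, which read 13.84, 14.06, 13.60, 13.72 and 13.78. They were 0.35 below those of day 1 (adjusted p = 4.86e-05) and rose again by 0.30 to day 28 (adjusted p = 1.43e-05). The treated mean stayed at 14.57, 14.51, 14.44 and 14.48, so that the called steps of the effect, 0.29 up to day 7 (adjusted p = 0.00481) and -0.37 to day 28 (adjusted p = 0.00257), arose mostly with changes of the controls.

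The probe sets of Cyp2c29, Cyp2c50, Cyp2c54 and Cyp2c70 read near the top of the scale, as did those of Cyp2c55 and Cyp2c37 in treated arrays. The highest signal on any array was 15.03 to 15.12, and Cyp2c29 lay on average 0.93 below it in the controls of day 1 and 0.50 below it in the treated arrays. In treated arrays the distance was 0.54 to 0.60 for Cyp2c50, 0.91 to 1.06 for Cyp2c54 and 1.02 to 1.29 for Cyp2c70, as means per group. It was 1.12 for Cyp2c55 at day 1 and 1.51 to 1.91 at the later times, and 1.34 to 1.72 for Cyp2c37. How far signals so near the top understate a rise was not tested.

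Cyp2c70, the enzyme that makes the muricholic acids, the bile acids typical of mice and rats, differed little between the groups. At day 1 the controls read 13.86, 14.13, 14.15 and 14.03 and the treated arrays 13.92, 14.00, 14.20, 14.03 and 14.09. The groups overlapped, and the difference was 0.0087 with a 95% interval of -0.16 to 0.17 (adjusted p = 0.947). It was 0.12 at day 7 (-0.03 to 0.28, adjusted p = 0.282) and 0.10 at day 28 (-0.05 to 0.26, adjusted p = 0.327). At day 91 the controls read 13.78, 13.62, 13.18, 13.74 and 13.59 and the treated arrays 13.90, 13.75, 13.98, 13.72 and 13.79. The difference of 0.24, or 1.18-fold, was called (SE 0.076, adjusted p = 0.0220) although the arrays still overlapped. The call was lost without control replicate 3, the lowest (0.14, adjusted p = 0.110), without phenobarbital replicate 1 (0.23, adjusted p = 0.0575) and without phenobarbital replicate 3 (0.21, adjusted p = 0.0766). Controls had fallen by 0.46 from day 1 to day 91 (adjusted p = 3.84e-05) and treated arrays by 0.22 (adjusted p = 0.0158).

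**Figure D2:**
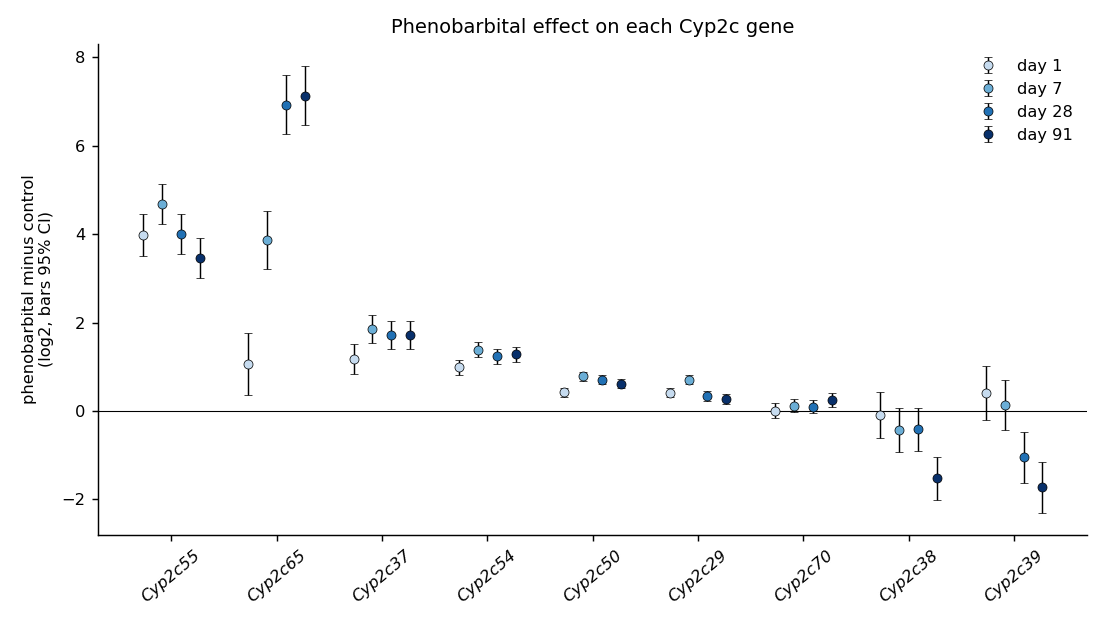
Phenobarbital minus control on the log2 scale (y axis) for each of the 9 Cyp2c genes (x axis), with 1 point per time from day 1 (lightest) to day 91 (darkest) and bars for the 95% confidence interval from limma. Cyp2c55 stays between 3.45 and 4.68, Cyp2c65 climbs from 1.06 to 7.13, Cyp2c37, Cyp2c54, Cyp2c50 and Cyp2c29 lie between 0.27 and 1.86, and Cyp2c38 and Cyp2c39 end at -1.53 and -1.72.

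Cyp2c39 and Cyp2c38, which lie next to Cyp2c29 in the cluster and share much of its promoter sequence, went the other way at the late times. Cyp2c39 is known as a hydroxylase of retinoic acid, and Cyp2c38 as an epoxygenase of arachidonic acid. Neither passed the test at day 1 or 7.

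Cyp2c39 read 10.22, 10.71, 10.52 and 9.24 in the controls of day 1 and 10.65, 10.74, 10.44, 10.39 and 10.69 in the treated arrays, a difference of 0.41 with a 95% interval of -0.20 to 1.02 (adjusted p = 0.304). At day 7 the controls read 9.49, 9.42, 9.79, 9.59 and 9.83, inside the range of the treated arrays (8.86, 9.37, 10.14, 10.12 and 10.30). The difference was 0.13 (-0.44 to 0.71, adjusted p = 0.788). At day 28 the controls read 8.76, 8.56, 8.99, 8.48 and 8.83 and the treated arrays 7.23, 8.04, 7.93, 7.79 and 7.39. All treated arrays were now below all controls, and the effect was -1.05 (SE 0.28, adjusted p = 0.00576), or 2.06-fold lower. At day 91 the controls read 9.12, 9.74, 10.24, 9.38 and 9.60 and the treated arrays 7.71, 8.81, 6.87, 7.45 and 8.61. The effect was -1.72 (SE 0.28, adjusted p = 5.73e-05), or 3.31-fold lower.

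In treated liver Cyp2c39 fell by 0.83 from day 1 to 7 (adjusted p = 0.0276) and by 2.08 from day 7 to 28 (adjusted p = 1.95e-06). The mean went from 10.58 through 9.76 to 7.68 and was 7.89 at day 91. Controls fell too, by 0.90 from day 7 to 28 (adjusted p = 0.00948), and rose by 0.89 to day 91 (adjusted p = 0.0309). In that last step the treated level changed by 0.21 (adjusted p = 0.626), and the change of the effect, -0.68 with a 95% interval of -1.49 to 0.13, was not called (adjusted p = 0.219). The effect changed by -1.18 from day 7 to 28 (adjusted p = 0.0492) and by -2.13 from day 1 to 91 (adjusted p = 0.000326), where 5.78% and 19.4% of all genes were called in that direction.

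Cyp2c38 read 8.87, 8.34, 8.80 and 8.95 in the controls of day 1 and 8.47, 8.67, 8.58, 8.45 and 9.11 in the treated arrays, a difference of -0.087 (95% interval -0.61 to 0.43, adjusted p = 0.823). At day 7 it was -0.43 (-0.92 to 0.06, adjusted p = 0.226) and at day 28 -0.41 (-0.90 to 0.08, adjusted p = 0.200). Treated and control arrays overlapped at each of these times. At day 91 the controls read 9.44, 10.22, 10.56, 10.01 and 9.92 and the treated arrays 8.19, 9.24, 7.65, 8.30 and 9.15. The groups no longer overlapped, and the effect was -1.53 (SE 0.24, adjusted p = 3.37e-05), or 2.88-fold lower.

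The drop of the effect on Cyp2c38 by 1.12 from day 28 to 91 (SE 0.34, adjusted p = 0.0199) was the only change among the 9 genes called in that interval, where 12.5% of all genes were called lower. It came with a rise of the controls by 1.03 (adjusted p = 0.00426), from 9.0 to 10.03, while the treated mean went from 8.59 to 8.51 (adjusted p = 0.835). Among the treated arrays of day 91, replicate 3 was the lowest and replicate 2 the highest for both Cyp2c38 and Cyp2c39. In the controls of that day replicate 3 was the highest and replicate 1 the lowest for both. Whether the probe sets read each other's RNA was not tested.

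In controls alone, from day 1 to 91, Cyp2c38 rose by 1.29 (adjusted p = 0.000162) and was the only one of the 9 called higher, where 19.7% of all genes were. Cyp2c70 and Cyp2c50 were called lower, by 0.46 and 0.15 (adjusted p = 3.84e-05 and 0.0169), where 16.6% of all genes were. This count of 2 became 1 without control day 1 replicate 2, without control day 1 replicate 3 or without control day 91 replicate 5. In treated liver over the same span, 3 genes rose, namely Cyp2c65 by 5.88, Cyp2c37 by 0.42 and Cyp2c54 by 0.20, and 3 fell, with changes of -2.69 in Cyp2c39, -0.74 in Cyp2c55 and -0.22 in Cyp2c70. In treated liver 21.1% of all genes rose and 28.0% fell. From day 28 to 91 limma called 0 of the 9 in treated liver, and 1 at an unadjusted p under 0.05, beside 17.2% of all genes called.

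Over the 4 times together the effect depended on time in 7 of the 9 genes, beside 35.1% of all genes tested. The adjusted p of the F test was 1.84e-11 for Cyp2c65, 0.000139 for Cyp2c29, 0.000385 for Cyp2c39, 0.00106 for Cyp2c50, 0.00722 for Cyp2c38, 0.0187 for Cyp2c55 and 0.0479 for Cyp2c54. For Cyp2c70 it was 0.328. Cyp2c65 passed the filter on low values only through treated arrays, so its place in this count is a description.

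The effects on the paralogs were then set against each other, gene by gene within the same arrays. For each of 36 pairs the difference between the 2 signals of an array was compared between treated and control arrays by an exact 2-sided permutation test. The p-values were adjusted over 144 tests, 36 at each time, and the smallest unadjusted p these numbers of arrays allow is 0.00794. At day 1, 23 pairs differed in their effect, at day 7, 30, at day 28, 35, and at day 91, 34. Every gene enters several pairs, so a single gene with a large effect makes many of them differ. The share of pairs of other genes that would pass was not computed. The counts therefore do not show that these paralogs differ more than other genes do.

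Cyp2c55 exceeded Cyp2c65 by 2.93 at day 1 (adjusted p = 0.0100), and Cyp2c65 exceeded Cyp2c55 by 2.92 at day 28 and by 3.68 at day 91 (adjusted p = 0.0100 at each). At day 7 their difference of 0.82 did not pass the test (adjusted p = 0.290). These differences use the dim control signals of Cyp2c65, and at day 1 none of its treated arrays exceeded the array median either, so their sizes hold for the measured signals only. Cyp2c37 exceeded Cyp2c54 by 0.47, 0.49 and 0.43 at days 7, 28 and 91 (adjusted p = 0.0100 at each), while at day 1 the difference was 0.19 (adjusted p = 0.437). Cyp2c37 exceeded Cyp2c50, the gene with the most similar promoter among those with an entry, by 0.76, 1.07, 1.02 and 1.10 at the 4 times (adjusted p = 0.0100 at each). Cyp2c50 and Cyp2c54 are among the probe sets near the top of the scale, so these sizes hold for the measured signals only.

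Cyp2c29 and Cyp2c39 differed in effect by 0.0074 at day 1, which did not pass the test (adjusted p = 1.00), and by 1.38 at day 28 and 1.99 at day 91 (adjusted p = 0.0100 at both). Cyp2c38 and Cyp2c39 differed by 0.64 at day 28 (adjusted p = 0.0100) and by 0.20 at day 91, which did not pass the test (adjusted p = 0.107). At day 91 the other pair that did not pass was Cyp2c29 and Cyp2c70, with a difference of 0.03 (adjusted p = 0.922). At day 28 the only such pair was Cyp2c38 and Cyp2c70 (-0.51, adjusted p = 0.0640). A pair that does not pass is not shown to respond alike.

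**Figure D3:**
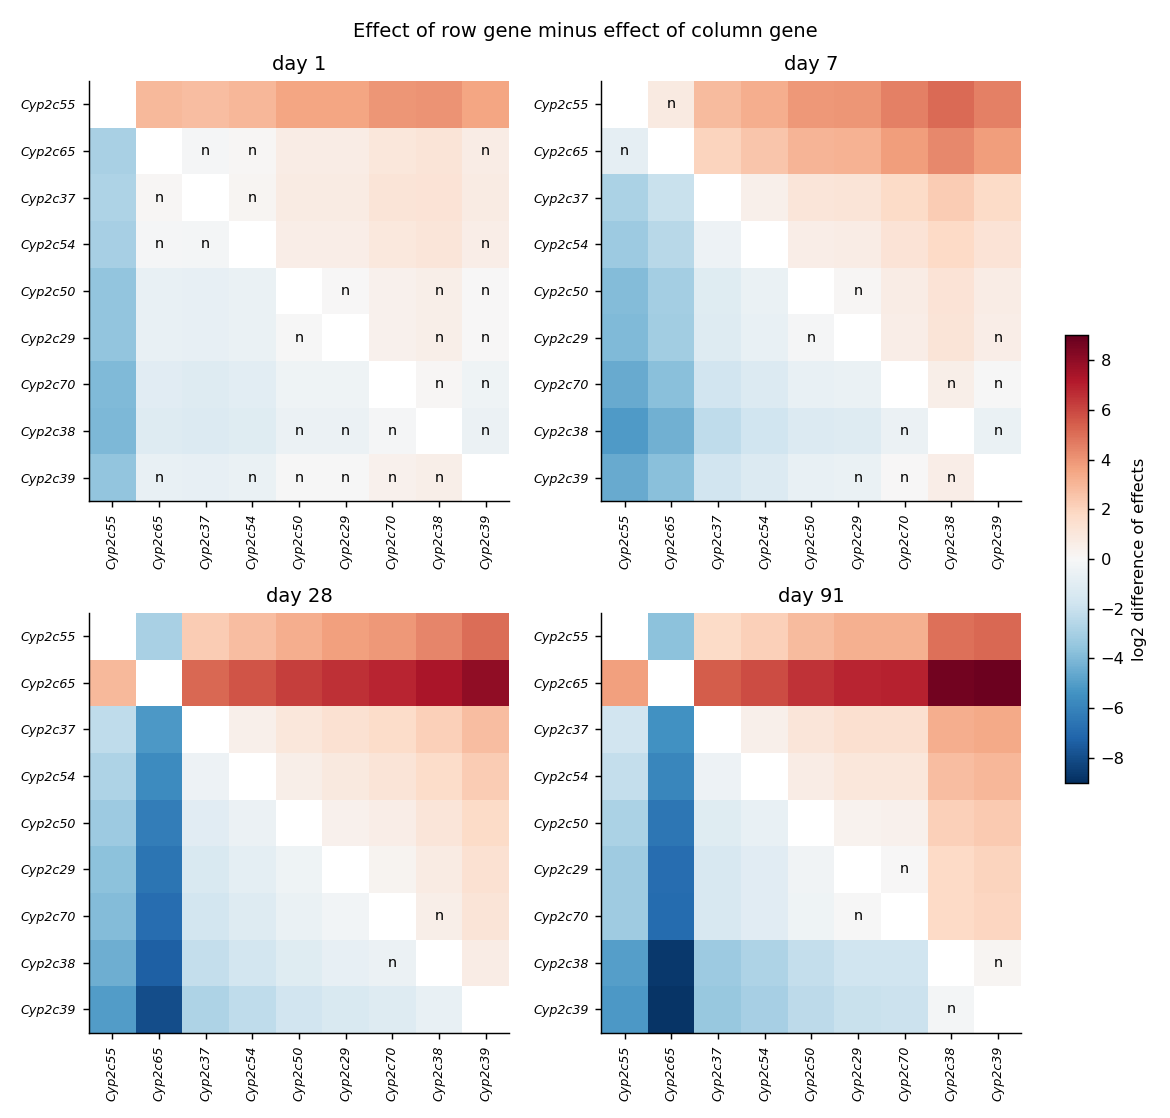
Difference between the effects of 2 Cyp2c genes (row gene minus column gene, log2, colour scale) at days 1, 7, 28 and 91, with "n" for pairs whose adjusted p from the exact permutation test was 0.05 or more. The number of pairs that differed went from 23 of 36 at day 1 to 35 at day 28 and 34 at day 91, and the row of Cyp2c65 turns from pale to the deepest colour. Pairs share genes, so these counts are not of independent results.

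For the 9 genes, the plot of effects by gene order starts with the strong rises of Cyp2c55 and Cyp2c65. It goes on with the small rise of Cyp2c29 and the late falls of Cyp2c39 and Cyp2c38. Then come the moderate rises of Cyp2c37, Cyp2c54 and Cyp2c50, and last Cyp2c70, which was called only at day 91 (0.24). On the array 11 Cyp2c genes had a probe set of their own, and the 2 outside the 9 were also tested. Cyp2c68, which follows Cyp2c38 among the measured genes, was not called at day 1 (-0.14, adjusted p = 0.442) and was lower by 0.59, 0.58 and 0.92 at days 7, 28 and 91 (adjusted p = 0.00173, 0.00114 and 5.28e-06). Cyp2c23, which lies last on the chromosome and makes epoxides of arachidonic acid, was lower at day 1 (-0.64, adjusted p = 0.00119), and at later times its difference was -0.25, -0.13 and -0.10, with none called. Genes of the cluster without a probe set of their own were not analysed here.

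**Figure D4:**
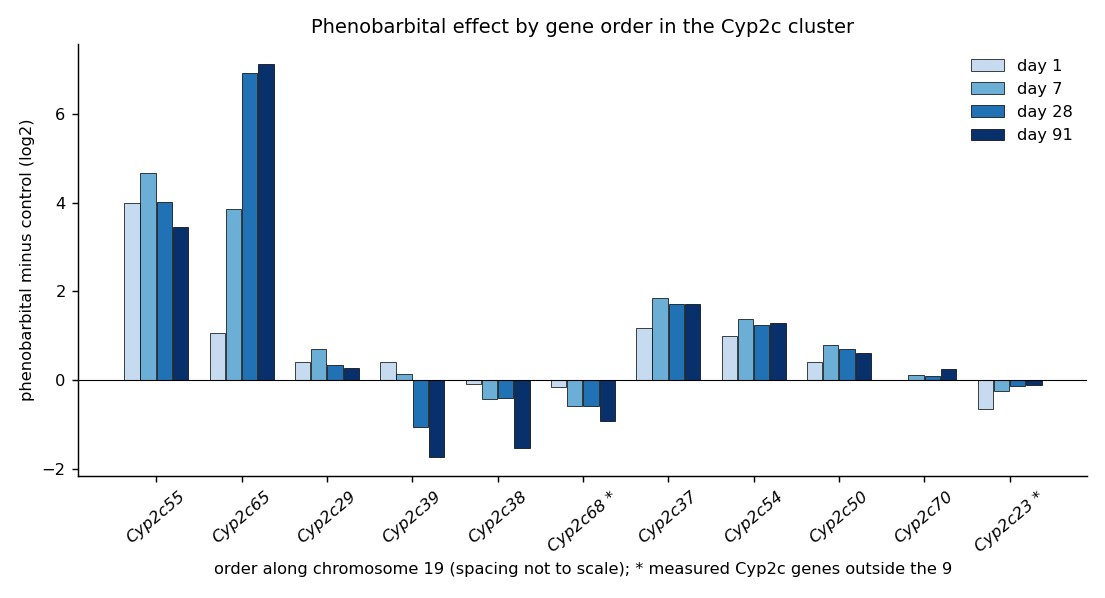
Phenobarbital minus control on the log2 scale (y axis) for the 11 measured Cyp2c genes in their order along chromosome 19 (x axis, not to scale), with 1 bar per time from day 1 (lightest) to day 91 (darkest); an asterisk marks the 2 genes outside the 9. Cyp2c55 and Cyp2c65 reach 4.68 and 7.13, Cyp2c39, Cyp2c38 and Cyp2c68 end at -1.72, -1.53 and -0.92, and Cyp2c37, Cyp2c54 and Cyp2c50 stay above 0.

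Over the 39 arrays, the tested genes whose signal ran most like that of each member were found by Pearson correlation, as a description, since arrays share treatment and time. Cyp2c37, Cyp2c54 and Cyp2c50 were each other's nearest genes (r = 0.975 for Cyp2c37 with Cyp2c54, and 0.971 for Cyp2c50 with each). Cyp2c55 ran with Cyp2b10 (r = 0.984), the best-known phenobarbital-induced P450, and with Gstm3 (0.966), a glutathione transferase. Cyp2c29 ran with Cyb5a (0.945), which encodes cytochrome b5, and Ugt2b34 (0.928), a glucuronosyltransferase. Cyp2c65 had Gm10419 (0.967) and Nebl (0.922), Cyp2c39 had Spc25 (0.901) and Nt5e (0.892), Cyp2c38 had Akap1 (0.835) and Pltp (0.811), and Cyp2c70 had Cdh1 (0.847) and Lifr (0.842).

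Most other P450 genes that respond to CAR rose as well. Of 17 listed, 12 were tested, and 8, 10, 9 and 7 were called higher at days 1, 7, 28 and 91, beside 1, 0, 0 and 1 called lower by limma (1, 0, 1 and 1 at an unadjusted p under 0.05). Their median effect was 0.42, 0.50, 0.35 and 0.39. Cyp2b10 rose by 6.21, 6.36, 6.90 and 5.64, against 3.99, 4.68, 4.01 and 3.45 for Cyp2c55. Cyp1a2, which oxidises caffeine, rose by 0.44, 0.58, 0.54 and 0.75, and Cyp3a11, the main drug-oxidising P450 of its subfamily, by 0.12, 0.37, 0.15 and 0.15, all called. The means of Cyp3a11 were near the top of the scale, 14.25 to 14.52 in controls and 14.62 to 14.67 in treated arrays. How far this understates its rises was not tested. The shares over all genes to set beside this count and those of the following lists are 15.8%, 5.64%, 11.2% and 4.62% called higher and 16.7%, 11.4%, 18.1% and 16.1% called lower at the 4 times.

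Of 17 tested genes of receptors, their partners and P450 supply, 4, 3, 4 and 2 were called higher and 4, 2, 4 and 4 lower, several of these counts near the share over all genes. Nr1i3 was not called at day 1 (0.31, adjusted p = 0.0578) and day 28 (-0.20, adjusted p = 0.213), and was lower by 0.59 at day 7 (adjusted p = 0.000635) and by 0.50 at day 91 (adjusted p = 0.00320). Nr1i2, which encodes PXR, was higher at day 1 (0.37, adjusted p = 0.00923) and was not called later (-0.01, 0.15 and -0.11). Alas1, the first enzyme of haem synthesis, rose by 2.39, 1.39 and 2.48 at days 1, 7 and 28, and at day 91 its difference was 0.34 (adjusted p = 0.611), with the control mean at 11.86 against 10.51, 10.10 and 9.64 before. Cyb5a rose by 0.19, 0.26, 0.16 and 0.16, all called. Gadd45b, a coactivator of CAR, rose by 2.46, 1.19, 1.29 and 1.59, all called. Por, the gene of P450 reductase, had no probe set of its own and was not analysed here.

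Genes of eicosanoid and retinoic acid metabolism were mixed. Of 12 tested genes of fatty acid epoxide and eicosanoid metabolism, 2, 3, 2 and 0 were called higher and 6, 3, 4 and 2 lower at the 4 times by limma. At an unadjusted p under 0.05, 0 were higher at day 91 as well. Ephx1, an epoxide hydrolase, rose by 0.92, 0.49 and 0.63 at days 1, 7 and 28, and the difference at day 91 was 0.15 (adjusted p = 0.276). Cyp4f15, a P450 of fatty acids, rose by 0.62, 0.44 and 0.43, with 0.13 at day 91 (adjusted p = 0.240). Its relative Cyp4f14 fell by 0.33, 0.23 and 0.39 at days 1, 7 and 91, and its difference at day 28 was -0.06 (adjusted p = 0.565). Cyp2j5, an epoxygenase of arachidonic acid, was lower at days 1 and 91 (-0.19 and -0.15), higher at day 7 (0.13) and not called at day 28 (-0.10, adjusted p = 0.0931). Of 18 tested genes of retinoic acid metabolism, to which Cyp2c39 is linked, 3, 6, 4 and 3 were higher and 3, 3, 3 and 3 lower. The higher count at day 1 and the lower counts at the 4 times were near the share over all genes. Aldh1a1, which makes retinoic acid from retinal, rose by 0.46, 0.46, 0.37 and 0.17, all called. Adh4, an alcohol dehydrogenase of retinol, fell by 0.73, 0.23 and 0.30 at days 1, 7 and 28, and its difference at day 91 was -0.18 (adjusted p = 0.0965).

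Male-biased genes were called lower only at days 1 and 7, and not as a whole. Of 12 tested, limma called 5 and 3 lower at days 1 and 7 and 0 at days 28 and 91 (also 0 at an unadjusted p under 0.05), while 0, 2, 0 and 1 were higher (0, 2, 1 and 1 unadjusted). Hsd3b5, a male-biased steroid dehydrogenase, fell by 2.08 and 2.06 at days 1 and 7 (adjusted p = 0.0122 and 0.0172) and differed by -0.06 and -0.13 later, with none called. Ugt2b1, a glucuronosyltransferase of the same list, was higher by 0.44 at day 7 and by 0.25 at day 91 (adjusted p = 0.000482 and 0.0386). Of 9 tested female-biased genes, 4, 5, 4 and 4 were higher and 1, 0, 0 and 1 lower by limma (2, 0, 0 and 1 lower at an unadjusted p under 0.05). The 4 that were higher at days 28 and 91 were Cyp2b9, Cyp2b13, Cyp3a44 and Sult3a1. Cyp2b9, Cyp2b13 and Cyp3a44 also stand in the list of P450 genes that respond to CAR, so the 2 lists are not separate. Cyp2b9 rose by 4.17 and 2.84 at these times, and Cyp2b13 by 1.91 and 4.81. At days 28 and 91, the times of the called falls of Cyp2c39 and Cyp2c38, the male-biased mean was 12.35 to 12.61 in treated against 12.49 to 12.69 in control arrays, and 12.15 to 12.50 against 11.99 to 12.50. The female-biased mean did not overlap, with 6.68 to 7.36 against 5.66 to 6.14 at day 28 and 7.47 to 8.44 against 6.19 to 7.12 at day 91. The part of the female-biased mean in these falls was not tested.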

How the data were processed

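Liver RNA of 39 samples in 8 groups was measured on Affymetrix mouse arrays with 45101 probe sets, labelled by the 3′ IVT Express assay per the labels' protocols. The deposited values are log2 signals, made with GCOS, of unstated version, per the submitters' processing notes. The method of normalization and summarization is not given in the sources used here. They were used as deposited. The treatment protocol mentions 28 days, while durations per sample reach 91 days and were followed. Its extraction text also names kidney, whereas every sample is labelled liver.

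Of the probe sets, 34945 had 1 gene symbol, 932 several and 9160 none, and 64 were controls. Each gene was represented by its brightest single-symbol probe set, and 12580 genes passed the filter. Group means were estimated from all arrays together by limma (3.58.1, R 4.3.3), whose moderated variances followed the mean signal. P-values are 2-sided and adjusted by Benjamini-Hochberg within each comparison. Promoters are from RefSeq (GRCm38.p6) and were aligned in Biopython 1.88. The build behind the arrays' annotation is not given in the sources used here. On simulated data the procedure recovered 83 to 87% of log2 changes of 0.5 and 95 to 98% of changes of 1, with 4.21 to 5.70% of calls false at the 4 times. These shares are over 12580 genes together and do not hold for each gene. The SE of the effect was 0.24 to 0.26 for Cyp2c38, 0.28 to 0.30 for Cyp2c39 and 0.33 to 0.35 for Cyp2c65. Changes of 0.5 in such genes can be missed.

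The members, gene lists, tests and alternatives were chosen with earlier results of these data known, so they are not independent evidence. Named genes are the 9 members, up to 4 called genes per list by the F test over the 4 effects, Nr1i3, Nr1i2, Por and Cyp2b10, and the nearest genes by correlation. Alternatives were another normalization or centring, other filters, probe sets, priors and weights, only the 2 groups compared, array measures as covariates, and leaving out each array. Replicate numbers only name the samples of a group, in accession order, and come from no label. Precision is limited by the number of arrays.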

Additional observations from a re-analysis of the deposited data

Results flagged for a closer look

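Of 72 sets of arrays checked, 9 genes in 8 groups, 1 held an array far from the others. For Cyp2c55 in the phenobarbital arrays of day 28, replicate 4 read 13.55 beside 13.48 to 13.50 in the other 4, a gap of 0.729 of the whole range. The range itself was under 0.1, and chance marks about 1 in 20 such sets.

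The effect of phenobarbital differed between the times in 7 genes by the F test in limma. The adjusted p was 1.84e-11 for Cyp2c65, 0.000139 for Cyp2c29, 0.000385 for Cyp2c39, 0.00106 for Cyp2c50, 0.00722 for Cyp2c38, 0.0187 for Cyp2c55 and 0.0479 for Cyp2c54. The effect on Cyp2c65, which passed the filter on low values only through treated arrays, grew from 1.06 at day 1 to 7.13 at day 91. Cyp2c39 went from 0.41 to -1.72 and Cyp2c38 from -0.09 to -1.53.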

How the results depend on the processing

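The counts of Cyp2c genes called higher and lower at each time were within 1.5 times the main count under every alternative run, and in no called effect of a single gene was the sign turned. Differences that turned sign were not called in the main fit. For Cyp2c70 at day 1 the difference was -0.0068 with quantile normalization, -0.026 with array weights, -0.028 without the 3 arrays that stand apart, and -0.052 to 0.044 leaving out 1 array at a time (-0.028 and -0.0028 for phenobarbital replicates 3 and 5). For Cyp2c38 it was 0.060 at day 1 with array weights, 0.034 at day 1 with the male-biased mean as a covariate, and 0.015 at day 7 when the spike-in mean entered as a covariate. For Cyp2c39 it was -0.078 at day 1 and -0.28 at day 7 with the male-biased mean as a covariate, and -0.00087 to 0.36 at day 7 leaving out 1 array at a time. The rise of Cyp2c70 at day 91 was not called in a fit of its 2 groups alone (0.24, adjusted p = 0.0993), which has fewer arrays. The cause of the other changes was not tested.

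Leaving out 1 array at a time, 6 to 7 genes were higher and 2 lower at day 91, 6 to 8 effects depended on time, and 20 to 25, 28 to 30, 35 to 36 and 33 to 34 pairs differed at days 1, 7, 28 and 91. The number of Cyp2c genes lower in the controls of day 91 than in those of day 1 went from 2 to between 1 and 3. Cyp2c65 has no value where probe sets that match several transcripts are left out, since its only probe set is of that kind. The male-biased covariate and leaving out the 3 arrays together were added after the data were seen. No paired analysis was possible because the labels give no replicate numbers.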
